A study of Bos taurus with 8 samples.

Results

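The genes described here belong to the contractile apparatus of smooth muscle and to the surface of mural cells, the smooth muscle cells and pericytes that wrap blood vessels. The list of 8 genes was ACTA2, TAGLN, CNN1, MYH11, DES, MCAM, PDGFRB and NOTCH3, and its members were found as all probes that carry one of these names in the scanner files. Of these genes 7 had a probe, with 19 probes in all, and all 7 entered the test, out of 12342 genes tested on the arrays. No probe carried the name NOTCH3, and that gene was not analysed here. Of the 19 probes 14 passed the filter on dim signals, which asks that all arrays of some group read well above background.

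The cells were primary cells of the cow eye that the labels call muller glia, the radial glia of the retina, grown for 18 to 21 days. They were left untreated (control, 2 arrays), or are titled for the HIV-1 protein TAT at 100 ng/ml (3 arrays) or for the HIV-1 envelope protein gp120 at 60 ng/ml (3 arrays), and RNA was taken after 24 h. The question the design poses is which genes each protein changes. Each title ends in a replicate letter (control A and B, TAT A to C, gp120 A to C), and nothing says whether a letter marks an animal, a culture or a day. P-values here thus reflect the spread among these 8 samples, which may be technical. The treatment text is the same for all samples and names both proteins together, and the extraction text speaks of astrocytes, so the groups rest on the titles alone. No cell type was sorted, and in bulk RNA fewer cells of a type and less RNA per cell cannot be told apart.

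Smooth muscle actin (ACTA2) forms the thin filaments of contractile cells, smooth muscle myosin heavy chain (MYH11) pulls on them, calponin (CNN1) and transgelin (TAGLN) bind the actin, and desmin (DES) is the muscle intermediate filament that ties the contractile units together. These genes are textbook targets of serum response factor with its partners of the myocardin family. MYH11 and CNN1 mark mature smooth muscle, whereas ACTA2 and TAGLN are also made by myofibroblasts and by many cells on culture plastic. MCAM is an adhesion molecule of mural and endothelial cells, PDGFRB the receptor through which platelet-derived growth factor B recruits pericytes, and NOTCH3 the receptor that keeps arterial smooth muscle differentiated.

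The probes are 60 bases long, and for DES the sequence bears on what the values stand for. The probe that gave the highest signal for DES, A_73_P323881, lies at chr2:111753764-111753823 (plus strand, build HGSC Btau_3.1, as the files give it), and the files list it against RefSeq transcripts of 3 genes: DES, PRPH (peripherin) and VIM (vimentin, the intermediate filament of glia and mesenchyme). It is shown beside a probe of VIM, with the longest run of bases that both share in capitals.
DES A_73_P323881: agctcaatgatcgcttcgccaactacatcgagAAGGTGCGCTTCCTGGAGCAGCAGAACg
VIM A_73_P100011: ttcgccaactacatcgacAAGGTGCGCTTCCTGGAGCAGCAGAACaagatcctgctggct
The shared run is 27 bases long, and over the 46 bases on which the probes overlap 44 match. Both sequences encode the start of the rod that intermediate filament proteins share.

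For MCAM the brightest probe, A_73_P045136, lies at chr15:28409598-28409657 (minus strand). A second MCAM probe, A_73_P108951 at chr15:28409497-28409530, gave another profile over the arrays and is shown by its last 30 bases.
MCAM A_73_P108951: gggagaatggtacttggagatgagaaatgg

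The probes of MYH11, CNN1 and TAGLN that carry the main finding of this section were read at the 3′ end of the transcript and, for CNN1 and TAGLN, in coding sequence too. The label protocol primes with oligo dT, which starts at that end. MYH11 A_73_103577 (chr25:15183395-15183454, minus strand) is shown by its last 30 bases, with the polyadenylation signal AATAAA in capitals, a motif that 8.35% of all 51282 probes hold on the strand of the probe. The 2 coding probes are shown in full. Their positions, chr7:14341162-14341361 and chr15:26325607-26326009 on the plus strand, span more than 60 bases of the genome.
MYH11 A_73_103577: ctgtacttaaggacaccctcactAATAAAa
CNN1 A_73_P349531: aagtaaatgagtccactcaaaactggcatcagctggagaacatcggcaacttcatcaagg
TAGLN A_73_P291026: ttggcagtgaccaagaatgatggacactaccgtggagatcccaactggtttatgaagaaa

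All values below are log2 signals minus the 75th percentile of their array, and arrays are given by group in the order of the letters A, B and C. The brightest probe that passed the filter and carried the gene's name stands for a gene. Groups were compared with limma over all genes and adjusted by the Benjamini-Hochberg method, with a threshold of 0.05. Differences between letters were tested in the same way with the group in the fit, by a moderated F test over the 3 letters and by the difference of each pair of letters. Between 55.46% and 64.62% of an array's spots were well above background, and 0 were saturated.

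The smooth muscle genes differed between the replicate letters, and no difference between treatments passed the test. MYH11, CNN1, TAGLN and ACTA2 were all higher in letter B than in letter A, by 13.5-fold, 10.8-fold, 2.91-fold and 1.84-fold, and each passed the test. So 4 of the 7 genes were called higher in B than in A, where 8.2% of all genes tested were, and none was called lower (7.17% of all genes). No gene on the arrays was called by TAT or gp120 against control (0%).

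MYH11 parted the letters most. Its signal was -1.22 and 2.44 in the controls, -1.02, 2.79 and 0.29 with TAT, and -1.46, 2.33 and -0.73 with gp120. Every letter B array lay above every letter C array, and both letter C arrays lay above the 3 letter A arrays, whichever protein had been given. The mean was -1.23 ± 0.22 (SD, n = 3) for letter A and 2.52 ± 0.24 (SD, n = 3) for letter B. The difference B minus A was 3.75 (SE 0.17, adjusted p = 0.00102 by limma), and it was 3.66 within the controls, 3.81 with TAT and 3.79 with gp120. Letter C stood 2.76 below B on the log2 scale (-2.76, SE 0.20, adjusted p = 0.00563) and 0.99 above A (SE 0.20, adjusted p = 0.0254). Without TAT B or without gp120 C the C minus B difference was -2.83 (adjusted p = 0.0512) and -2.47 (adjusted p = 0.0915). Without TAT A, TAT C, gp120 A or gp120 C the C minus A difference was 0.87, 0.70, 1.07 and 1.28, with adjusted p-values of 0.0987, 0.206, 0.0632 and 0.0999. A second probe near the 3′ end, A_73_P035431, read -3.42 and -0.25 in the controls, -3.61, 0.41 and -1.84 with TAT, and -3.58, 0.16 and -2.55 with gp120. It showed the same order of letters (F test over all probes, adjusted p = 0.00214). The other MYH11 probes, A_73_P106816 and A_73_P162812, lie farther 5′ in the gene and were well above background on 1 and 0 arrays.

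CNN1, the calponin of smooth muscle, stood at 1.77 and 5.47 in the controls, at 3.18, 5.60 and 5.02 with TAT, and at 2.05, 6.21 and 4.18 with gp120. The 3 letter A arrays were the lowest and did not overlap with the others. B minus A was 3.43 (SE 0.34, adjusted p = 0.00394), with 3.70 in the controls, 2.42 with TAT and 4.16 with gp120. C minus A was 2.05 (SE 0.40, adjusted p = 0.0226), but it missed the threshold when a control, TAT C, gp120 A or gp120 C was left out (1.99, 1.77, 1.78 and 2.34, with adjusted p-values of 0.0518, 0.166, 0.0853 and 0.142). C minus B was -1.37 (SE 0.40, adjusted p = 0.181). The coding probe of CNN1 printed above was well above background on 6 arrays, the exceptions being control A and gp120 A. It read -5.80 and -2.05 in the controls, -4.49, -1.52 and -2.97 with TAT, and -5.53, -1.21 and -3.52 with gp120, the same order of letters (F test, adjusted p = 0.00309).

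TAGLN, an actin-bundling protein and early marker of the smooth muscle lineage, read 4.29 and 5.59 in the controls, 4.96, 6.27 and 5.55 with TAT, and 4.41, 6.43 and 5.34 with gp120. Letter A was again lowest in each group. B minus A was 1.54 (SE 0.19, adjusted p = 0.00686), against 0.70 for C minus A (SE 0.22, adjusted p = 0.0798) and -0.84 for C minus B (SE 0.22, adjusted p = 0.153). On the coding probe B minus A was 1.81 in the controls, 1.98 with TAT and 2.72 with gp120 (F test, adjusted p = 0.00688). ACTA2 had 1 probe, which read 6.23 and 7.13 in the controls, 6.96, 7.58 and 7.13 with TAT, and 6.71, 7.85 and 6.84 with gp120. Its range over the 8 arrays was narrower than that of MYH11 or CNN1. B minus A was 0.88 (SE 0.16, adjusted p = 0.0214), and this call was lost without either control (adjusted p = 0.0846) and without TAT A, TAT C, gp120 A, gp120 B or gp120 C (0.05 to 0.0756), at differences of 0.74 to 0.95. For MYH11, CNN1 and TAGLN the B minus A call held whichever array was left out, with adjusted p-values of 0.00327 to 0.0117, 0.00827 to 0.0305 and 0.0204 to 0.0305.

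**Figure D1:**
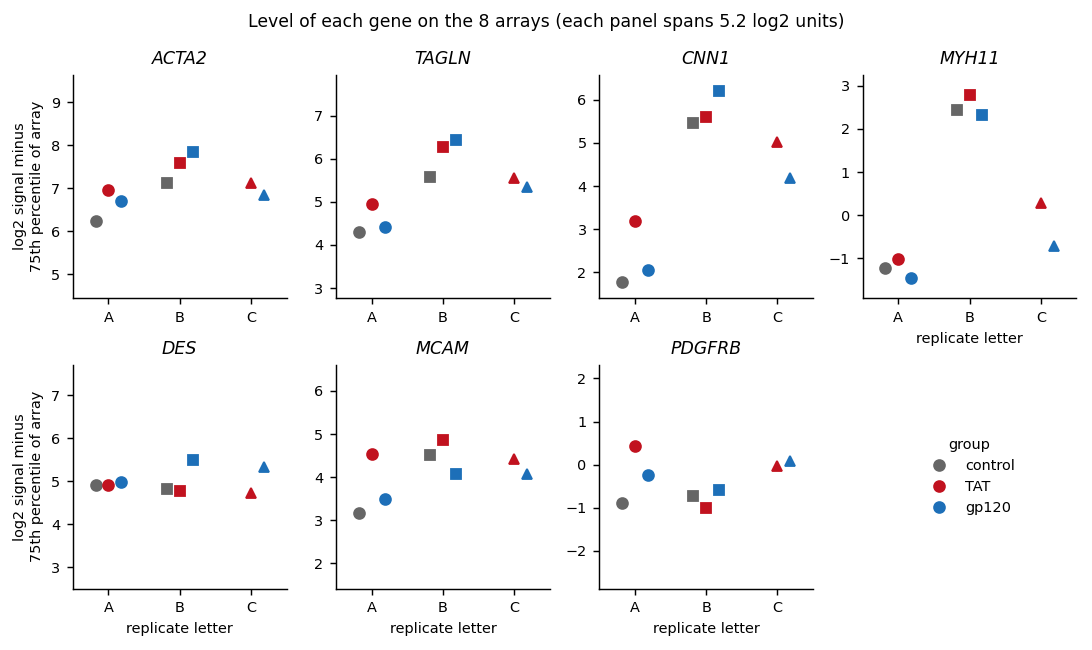
Level of each of the 7 genes (log2 signal minus the 75th percentile of the array, y axis) on the 8 arrays by replicate letter (x axis), 1 point per array, coloured by group. MYH11 lies between 2.33 and 2.79 on the letter B arrays and between -1.46 and -1.02 on the letter A arrays, while DES spans 4.72 to 5.50.

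Slide row and scan partly follow the letters. Row 1 of the slide held the 3 letter A arrays and control B, and row 2 held TAT B, gp120 B and both letter C arrays. Within row 1 the only B minus A difference is that of the controls, 3.66 for MYH11, 3.70 for CNN1, 1.30 for TAGLN and 0.90 for ACTA2. With row as a block the fitted differences take those same values, but the adjusted p-values became 0.0532, 0.0761, 0.132 and 0.196, so 0 of the 7 genes were called. The gp120 arrays of letters B and C came from a separate scan with the detector at 471 V in place of 431 V. The control and TAT differences between B and A, given above, lie within 1 scan. With scan as a block 3 genes kept a call in B minus A: MYH11, CNN1 and TAGLN. For the letters this is the same fit as leaving out gp120 A, the only gp120 array in the scan of the controls. By the F test over letters 4 of the 7 genes and 2157 of all genes tested (17.5%) passed. That share was 8.95% without either control, 7.81% without TAT A, 11.1% without TAT B, 5.35% without TAT C, 7.32% without gp120 A, 12.3% without gp120 B and 4.6% without gp120 C. In the C minus A difference 2 genes, CNN1 and MYH11, were called higher (8.88% of all genes) and none lower (7.88%), and in C minus B MYH11 was called lower (1.11% of all genes).

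**Figure D2:**
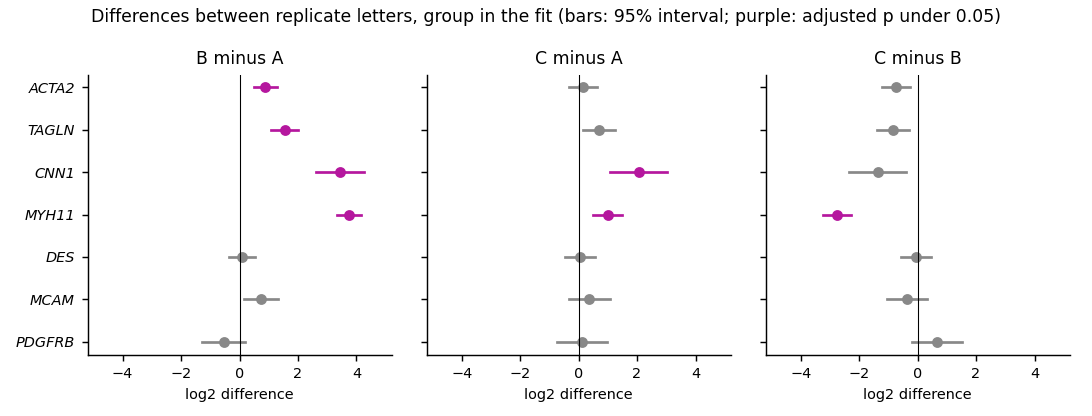
Fitted log2 differences between letters (x axis) for each gene (y axis), with 95% intervals, purple where the adjusted p is under 0.05. In B minus A, MYH11 (3.75), CNN1 (3.43), TAGLN (1.54) and ACTA2 (0.88) lie above 0, while DES, MCAM and PDGFRB did not pass.

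DES did not share this order on the probe that stands for it. A_73_P323881 read 4.91 and 4.82 in the controls, 4.91, 4.77 and 4.72 with TAT, and 4.98, 5.50 and 5.34 with gp120. The VIM probe with the shared run read 4.97 and 4.89, then 5.12, 4.88 and 4.83, then 5.07, 5.70 and 5.48 on the same arrays. Centred on their own means, the profiles of both probes differed by a root mean square of 0.05. The other VIM probes, of which none holds the run, differed from the DES probe by 0.16 to 0.25. The gene MRPL12 differed from it by 0.04. The DES probe varied little over the arrays (SD 0.28), so such likeness is not particular to VIM. Of the remaining DES probes, A_73_P419516, whose last bases hold AATAAA, was well above background on 7 arrays. It read -3.87 and -4.53 in the controls, -2.94, -3.07 and -4.84 with TAT, and -4.20, -3.85 and -4.78 with gp120. Letter C was lowest with both proteins, while the order of A and B changed between groups. The F test over all probes did not pass (adjusted p = 0.0782), whereas C minus A did, at -1.37 (SE 0.35, adjusted p = 0.0493 by limma over all probes). Probes A_73_105976 and A_73_P100026 were well above background on 1 and 0 arrays. Whether A_73_P323881 measured DES or VIM was not tested, and its values are given here as those of the probe.

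MCAM gave different pictures on different probes. The brightest probe, A_73_P045136, read 3.17 and 4.51 in the controls, 4.54, 4.85 and 4.41 with TAT, and 3.50, 4.07 and 4.08 with gp120. Its B minus A difference was 0.74 (SE 0.24, adjusted p = 0.0931). The other tested MCAM probe, A_73_P108951, read -2.42 and 1.23 in the controls, -1.61, 1.49 and -0.22 with TAT, and -1.89, 1.5 and -0.64 with gp120. On it the order of letters was that of MYH11, with B above C and C above A in each protein (F test over all probes, adjusted p = 0.00137) and B minus A differences of 3.65, 3.1 and 3.39 in control, TAT and gp120. With the mean of all kept probes in place of the brightest, the MCAM difference B minus A was 2.06 and passed (adjusted p = 0.00247). The third MCAM probe, A_73_P075166, was well above background on 5 arrays and was not tested. What part of the A_73_P045136 signal came from MCAM transcripts was not tested.

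PDGFRB, the PDGF receptor of pericytes and fibroblasts, read -0.90 and -0.73 in the controls, 0.44, -1.0 and -0.03 with TAT, and -0.25, -0.58 and 0.09 with gp120. Letter B was not the highest in any group of 3. B minus A was -0.54 (SE 0.30, adjusted p = 0.274). Probe A_73_P362946 differed between letters (F test, adjusted p = 0.038), with C above A and B in both proteins at -1.71 against -2.38 and -3.18 with TAT, and -2.12 against -3.23 and -3.27 with gp120. Its neighbour A_73_P085451 (adjusted p = 0.225) and a probe known in the files only by its transcript accession (adjusted p = 0.188) did not pass.

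**Figure D3:**
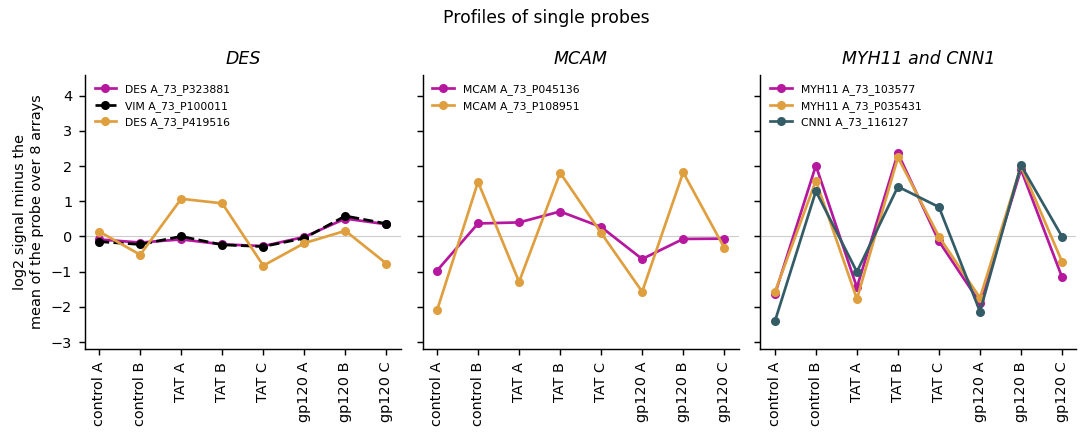
Log2 signal of single probes minus their own mean over the 8 arrays (y axis), with the arrays along the x axis. The DES probe A_73_P323881 runs with the VIM probe (root mean square difference 0.05, where MRPL12, not shown, lies at 0.04). The MCAM probe A_73_P108951 differs more between letters A and B (3.65 in the controls) than A_73_P045136, which read 3.17 in control A and 4.51 in control B.

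Against control, 6 of the 7 genes stood higher with TAT, and none passed. The median difference over the 7 genes was 0.62, beside -0.03 over all genes tested, of which 45.3% lay above 0. Both controls shared a slide row with only TAT A and gp120 A. A fit with slide row as a block thus sets treated arrays of letter A against controls A and B, and its median over the 7 genes was -0.15. CNN1 stood 0.98 higher (SE 1.45), MCAM 0.76 (SE 0.40), TAGLN 0.65 (SE 0.66), PDGFRB 0.62 (SE 0.42), ACTA2 0.54 (SE 0.42) and MYH11 0.08 (SE 1.58), and the DES probe -0.07 (SE 0.21), all at an adjusted p of 1. Of all genes 168 had an unadjusted p under 0.05, and none of the 7 was among them. With the letters as a block 593 of all genes had one. Among them were ACTA2 (0.64, SE 0.19), TAGLN (0.68, SE 0.22) and MCAM (0.76, SE 0.29), with unadjusted p-values of 0.0153, 0.0215 and 0.0369 and an adjusted p = 0.938 for each by limma. The intervals were wide for the genes that vary with the letters, -3.60 to 3.77 for MYH11 and -2.40 to 4.36 for CNN1, against -0.45 to 1.53 for ACTA2. Groups overlapped for each of the 7 genes, where 4.89% of all genes had every TAT array above both controls and 9.12% every TAT array below them. Without control A, CNN1 stood at -0.87 and MYH11 at -1.75, since the letter B control then stood alone. Without TAT B, MYH11 stood at -0.97.

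Arrays of the same letter give a narrower view, with 1 array on each side. From control to TAT, TAGLN stood 0.67 higher in letter A and 0.68 in B, ACTA2 0.73 and 0.45, CNN1 1.42 and 0.13, MYH11 0.21 and 0.36, and MCAM 1.37 and 0.34. PDGFRB went in opposite directions, 1.33 in A and -0.27 in B. On MCAM probe A_73_P108951 the differences were 0.82 and 0.26. On the second MYH11 probe, A_73_P035431, they were -0.18 and 0.67. On the untested MCAM probe, A_73_P075166, they were 0.23 and -0.46. So ACTA2, TAGLN, CNN1 and MCAM were higher with TAT in both letters on their tested probes, and for MYH11 the probes parted in letter A. The share of all genes higher in both letters was not computed. In letter B the TAT and gp120 arrays lay on slide row 2 and the control on row 1.

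With gp120, 6 of the 7 genes again stood above control, as did 48.5% of all genes tested. None passed (354 of all genes had an unadjusted p under 0.05). The median was 0.45, beside -0.01 over all genes (-0.17 with slide row and -0.33 with scan as a block), and the comparison shares its control arrays with that of TAT. PDGFRB stood 0.57 higher (SE 0.42), CNN1 0.53 (SE 1.45), TAGLN 0.46 (SE 0.66), ACTA2 0.45 (SE 0.42), the DES probe 0.41 (SE 0.21) and MCAM 0.05 (SE 0.40), with MYH11 at -0.56 (SE 1.58), each at an adjusted p of 0.999. With the letters as a block ACTA2 stood 0.55 higher (SE 0.19, unadjusted p = 0.0285, adjusted p = 0.778 by limma), and 741 of all genes had an unadjusted p under 0.05. PDGFRB and the DES probe had every gp120 array above both controls, as did 5.57% of all genes, and none of the 7 had every array below (7.53% of all genes). Within letters A and B, ACTA2 stood 0.48 and 0.72 higher, TAGLN 0.12 and 0.84, CNN1 0.28 and 0.74, and PDGFRB 0.65 and 0.15. MYH11 stood at -0.23 and -0.10, and MCAM at 0.33 and -0.43. For the DES probe the differences were 0.07 in A and 0.68 in B, where gp120 B is of the other scan. Scan as a block leaves gp120 A as the only gp120 array compared with controls A and B. In that fit CNN1, TAGLN and MCAM fell below 0 (-1.57, -0.53 and -0.33), with a letter A array set against controls of letters A and B. Without control A the CNN1, TAGLN and MCAM differences were -1.33, -0.19 and -0.62, without gp120 B they were -0.51, -0.06 and -0.04, and without control B that of MYH11 was 1.27.

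Set against each other, TAT and gp120 did not differ for any of the 7 genes past the threshold (0% of all genes were called, and 333 had an unadjusted p under 0.05). MCAM stood 0.71 higher with TAT (SE 0.36, 95% interval -0.13 to 1.55), with every TAT array above every gp120 array, as for 3.06% of all genes. Its same-letter differences on A_73_P045136 were 1.03, 0.78 and 0.32 for A, B and C, and on A_73_P108951 they were 0.29, -0.01 and 0.42. The DES probe stood at -0.47 (SE 0.19, unadjusted p = 0.0391, adjusted p = 1 by limma), with every TAT array below every gp120 array, as for 3.61% of all genes. The letters gave -0.08, -0.73 and -0.62, and the values farther from 0 are those whose gp120 array came from the separate scan. MYH11 stood 0.64 higher with TAT (SE 1.41, 95% interval -2.65 to 3.94), at 0.44, 0.46 and 1.03 within the letters. With the letters as a block the MYH11 difference had an SE of 0.17 (unadjusted p = 0.00908, adjusted p = 0.587 by limma). In that fit the unadjusted p was 0.0259 for MCAM and 0.0386 for the DES probe, as for 999 of all genes it was under 0.05, and the adjusted p was 0.587 and 0.597. For ACTA2 the letters gave 0.25, -0.26 and 0.29, and for CNN1 1.14, -0.61 and 0.83, so B went against A and C. The intervals for ACTA2 (-0.79 to 0.98) and PDGFRB (-0.82 to 0.92) leave room for differences of either sign.

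**Figure D4:**
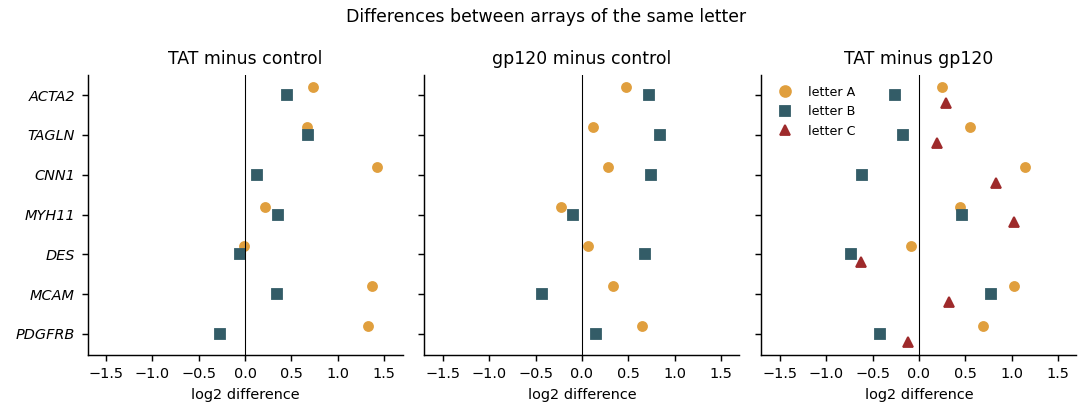
Log2 difference between arrays of the same letter (x axis) for each gene (y axis), 1 array on each side, for TAT minus control, gp120 minus control and TAT minus gp120. From control to TAT the TAGLN values (0.67 and 0.68) nearly coincide, while PDGFRB lies on both sides of 0 (1.33 and -0.27).

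Other genes of the contractile apparatus followed the letters too. Of 22 listed, 21 were tested, and 13 were called higher in B than in A with 0 called lower, where 8.2% and 7.17% of all genes were; the median was 1.07, beside -0.01 over all genes. SYNPO2, a Z-disc and actin-bundling protein, stood 2.36 higher (SE 0.23), from -5.42, -5.01 and -6.15 on the letter A arrays to -3.30, -3.04 and -3.17 on the letter B arrays. These are low signals, well above background on at most 6 arrays, and under normexp background correction the difference was 0.17 (adjusted p = 0.29 by limma). ACTG2, the gamma actin of visceral smooth muscle, read 2.42, 3.08 and 2.09 in A against 4.31, 5.04 and 4.56 in B, a difference of 2.11 (adjusted p = 0.0024). The count of 13 was 7 without a control, gp120 A or gp120 B, 8 without TAT C or gp120 C, 9 without TAT B and 10 without TAT A. With scan as a block, the same letter fit as without gp120 A, it was also 7. It was 8 with no filter and 0 with slide row as a block. Of the broadly expressed genes of the list, TAGLN2, FLNA, CALD1 and MYL6 were not called, at -0.02, -0.04, 0.08 and 0.43, whereas the actin-binding or focal adhesion genes ACTN1 (0.91), VCL (0.76), CNN2 (0.92) and PDLIM7 (1.22) were called higher. Against control all 21 stood higher with TAT, none past the threshold, at a median of 0.50. Of all genes 45.3% stood higher, at a median of -0.03. The 21 genes share the same control arrays and many differ between letters, so they are not separate observations. How many stood higher without control A or with slide row as a block was not tested. CALD1, which holds actin and myosin apart at rest, stood 0.72 higher and TPM2, a tropomyosin, 0.96 higher. With gp120 18 of 21 stood higher, at a median of 0.17, beside 48.5% of all genes and a median of -0.01. The myosin phosphatase subunit PPP1R12A stood at -1.03 with gp120 (unadjusted p = 0.0124, adjusted p = 0.999 by limma) and the light chain MYL6 at 0.28.

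For the regulators of these genes 10 names were listed, of which MKL1 and MRTFA are the same gene, as are MKL2 and MRTFB. All 8 genes so named were tested, and 1 differed between letters. GATA6, a transcription factor that sustains the smooth muscle state, was higher in B by 1.06 (SE 0.18, adjusted p = 0.0154). That is 1 of 8 genes, where 17.5% of all genes differed between letters and 8.2% were higher in B. Without TAT A, TAT B, gp120 A or gp120 B it missed the threshold (adjusted p = 0.0576 to 0.0624), as it did with slide row (0.216) or scan (0.0603) as a block. The scan fit is the same as that without gp120 A. GATA6 signals were low, for example -4.23 in TAT A and -2.90 in TAT B. Under normexp background correction its B minus A difference was 0.08 (adjusted p = 0.601 by limma). SRF itself, the factor that binds these promoters, was near background, well above it on at most 5 arrays, and stood at -0.27 (adjusted p = 0.621). MYOCD, its muscle-specific partner, was well above background on at most 4 arrays. With TAT, FHL2, a partner of SRF, stood at 0.35 and GATA6 at -0.47. With gp120, MRTFB, another SRF partner, stood at 0.85 and FHL2 at 0.42, none past the threshold.

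**Figure D5:**
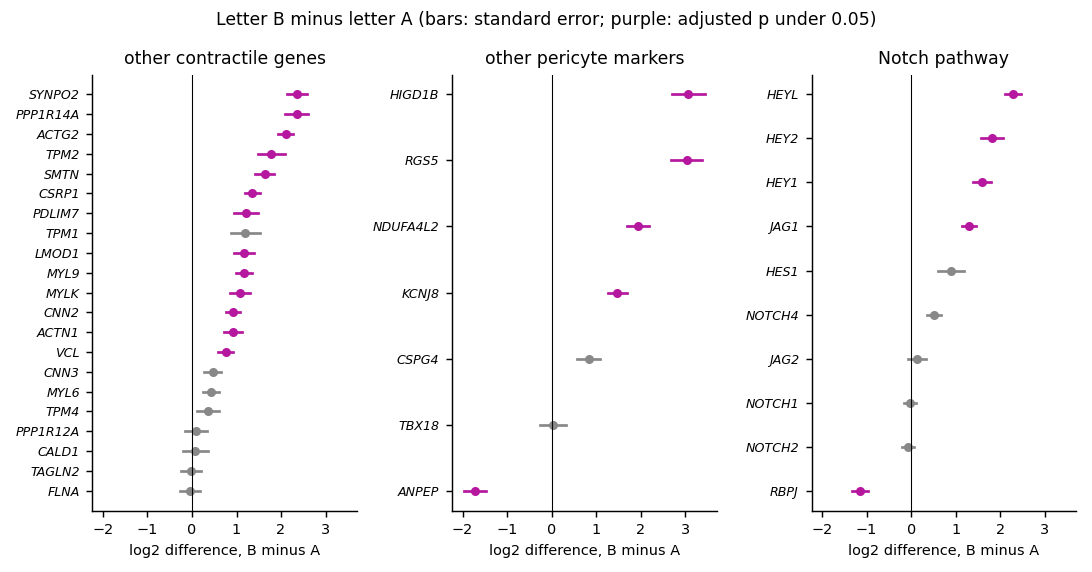
Log2 difference of letter B minus letter A (x axis) with its standard error, for 21 contractile genes, 7 pericyte markers and 10 Notch pathway genes (y axes), purple where the adjusted p is under 0.05. Of the contractile genes 13 are called higher and 0 lower, and RBPJ and ANPEP are called lower.

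Pericyte markers other than MCAM and PDGFRB were tested for 7 of 11 listed, and 4 were called higher and 1 lower in B than in A, beside 8.2% and 7.17% of all genes. With slide row as a block 0 were called higher. RGS5, a brake on G protein signalling that marks pericytes, read -4.08, -2.64 and -2.22 on the letter A arrays, -0.04, 0.33 and -0.14 on the letter B arrays, and -0.80 and -0.77 on the letter C arrays. Its B minus A difference was 3.03 (SE 0.35, adjusted p = 0.00565), and 4.04 with slide row as a block (adjusted p = 0.0532). KCNJ8, the pore of the pericyte KATP channel, was 1.48 higher in B (adjusted p = 0.0115), and HIGD1B and NDUFA4L2 were 3.07 and 1.94 higher. ANPEP, an aminopeptidase of pericytes and other cells, was lower at -1.72. CSPG4, the NG2 proteoglycan, stood at 0.83 and did not pass. In C minus A 4 markers (RGS5, KCNJ8, HIGD1B and NDUFA4L2) were called higher and 0 lower, beside 8.88% and 7.88% of all genes. KCNJ8 was highest in letter C, 2.2 above A. Both TBX18 and RGS5, the genes of this list with the smallest p against control, missed the threshold, at 0.44 and 1.02 with TAT and -0.40 and 1.02 with gp120. Without control A, RGS5 stood at -1.0 with either protein.

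For the ligands of PDGFRB the letters did not differ past the threshold. PDGFB stood at -0.94 in B minus A (adjusted p = 0.0562) and PDGFC at 0.61. The PDGFB difference passed without TAT B (-1.28, adjusted p = 0.0259), under normexp (-0.82, adjusted p = 0.0234) and among probes well above background on all 8 arrays (-0.94, adjusted p = 0.0414). PDGFC and PDGFD stood 0.50 and 0.72 above control with TAT and 0.67 and 0.59 with gp120. Of the Notch pathway 10 of 14 listed genes were tested, with 4 called higher and 1 lower in B than in A, beside 8.2% and 7.17% of all genes. The count of 4 was 0 with slide row as a block and 2 under normexp background correction. HEYL, a Notch target of vascular smooth muscle, read 2.0, 2.72 and 2.07 in A, 4.53, 4.59 and 4.51 in B, and 3.60 and 2.93 in C, with B minus A at 2.28 (SE 0.19, adjusted p = 0.0024, and 0.0573 with slide row as a block). HEY1 stood 1.59 higher, HEY2 1.81 and the ligand JAG1 1.30, while RBPJ, the DNA-binding partner of Notch, was lower at -1.15. The receptors NOTCH1 and NOTCH2 stood at -0.02 and -0.07. Against control JAG2 stood at 0.57 with TAT and 0.42 with gp120, and RBPJ at -0.57 and -0.53, none past the threshold. RBPJ stood at 0.05 and 0.10 without control A.

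By likeness of the centred profile over the 8 arrays, among 11240 genes well above background on all of them, the nearest to CNN1 was GJA5 (a root mean square difference of 0.25), the connexin of arteries, followed by CEND1 (0.47). Nearest to MYH11 were TPD52L1 (0.33) and APOBEC2 (0.50). ACTA2 lay nearest to TRMT11 (0.14) and ACTN1 (0.17), an actin crosslinker, and TAGLN to COMMD2 and ANLN (both 0.17). The DES probe lay nearest to MRPL12 (0.04) and DYNC1I2 (0.09), MCAM to LRIG1 (0.13) and ARMCX1 (0.16), and PDGFRB to LAMB3 (0.21) and CFB (0.22). Genes that vary little over the arrays have more close neighbours by this measure.

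Markers of other cell types were read on the same arrays. Of 13 Müller glia markers 8 were tested, among them GLUL, SLC1A3 and AQP4, whereas RLBP1, GFAP and KCNJ10 were well above background on at most 2, 2 and 1 arrays. Their summed level, which follows the brightest genes, was 7.87 to 8.25 in letter A, 7.79 to 8.15 in B and 7.99 to 8.09 in C. In B minus A 1 was called higher (CRYAB, 1.51) and 0 lower, beside 8.2% and 7.17% of all genes. In C minus A 2 were called higher (CRYAB, 1.45, and SLC1A3, 1.34) and 1 lower (S100B, -0.81), beside 8.88% and 7.88%. Fibroblast markers, 10 of 10 tested, summed to 6.76 to 7.85 in A, 6.98 to 7.25 in B and 7.16 to 7.51 in C. In B minus A 0 were called higher and 1 lower (FAP, -1.91), and in C minus A 0 higher and 2 lower (FAP, -1.67, and TCF21, -1.06). The shares of all genes are those just given. By group the fibroblast markers summed to 6.76 to 6.98 in control, 7.25 to 7.85 with TAT and 6.92 to 7.19 with gp120. With TAT 9 of 10 stood higher than control (median 0.72, 0 called), beside 45.3% of all genes (median -0.03). Endothelial markers (7 of 10 tested) summed to 2.6 to 2.76 in A and 2.65 to 2.78 in B, with 1 called higher and 2 lower in B (8.2% and 7.17% of all genes), and CDH5 was on no array well above background. Of 8 markers of the retinal pigment epithelium 4 were tested: MITF, PMEL, TTR and KRT8, each well above background on 8 arrays. RPE65 and TYR were so on at most 2 and 0 arrays. The sum of the tested markers, mostly TTR, was 6.34 to 6.56 in A, 6.80 to 7.67 in B and 5.60 in C. In B minus A 1 was called higher (TTR, 0.90) and 0 lower. In C minus A 0 were called higher and 1 lower (TTR, -1.02). Skeletal muscle markers (5 of 9 tested) summed to 2.47 to 3.29 in A and 2.34 to 2.77 in B. MYOD1, MYOG, ACTA1 and MYH3 were well above background on 8 arrays, and MYF5, MYH2 and TNNT3 on 0. In B minus A 1 was called higher (MYOG, 0.74) and 0 lower. In C minus A 2 were called higher (MYOG, 1.385, and MYH3, 0.92) and 1 lower (MYOD1, -1.21). For these 2 lists too the shares of all genes are 8.2% and 7.17% in B minus A and 8.88% and 7.88% in C minus A. Microglial markers (9 of 9 tested) summed to 8.78 to 9.09 in A and 8.57 to 8.98 in B. The part of any of these in the differences between letters or groups was not tested.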

How the data were processed

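Each scanner file holds an intensity per spot, the processed signal, background-subtracted and detrended by the authors in Agilent Feature Extraction (version 11.5.1.1), per the file headers. The authors also deposited log2 values by gene name in a value table, whose making the labels do not describe.

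The 75th percentile of an array was taken off its log2 signals. Between 4 and 37 outlier spots per array were dropped along with control spots, and spots of 1 probe were averaged. Of 51282 probes 31591 passed the filter (well above background throughout some group), of which 31546 had no missing value. Genes were named through RefSeq accessions (28112 probes), symbols (6484) or synonyms (153), 1754 kept the file's name, and 14779 stayed unnamed. The brightest kept probe stood for each of 12342 genes, for the 7 members only among probes that carry their name, a choice made after seeing that the brightest PDGFRB probe lacks it.

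All fits used limma (3.58.1, lmFit followed by eBayes, two-sided, R 4.3.3) on the 8 arrays together. TAT minus control in the group fit and B minus A in the letter fit were tested on simulated data. The other comparisons, the F test and the blocks were not. The simulated group data held no differences between letters. Other tools were Python 3.11.15, numpy 2.4.6, pandas 2.3.3, matplotlib 3.10.9 and data.table (1.17.8). The letters were taken to pair the arrays, since deviations from group means correlated at 0.368 to 0.738 between arrays of the same letter, although the range for different letters (-0.648 to 0.415) overlaps it. Centring itself pushes correlations between different letters down, and the deviations of controls A and B are exact opposites. Control B correlated at 0.415 with TAT C and 0.389 with gp120 C, against 0.398 with TAT B and 0.368 with gp120 B. For control B the check thus cannot tell letter B from letter C. Members, lists and tests were chosen with earlier results of these data known. Named beside the members were the 2 genes of each pathway list with the smallest p per comparison and the 2 nearest profiles of each member; list members called or not were named after their values were seen. Alternatives were background correction, scaling, filter, probe choice, the deposited values, letter, slide row and scan as blocks, and each array left out. Promoter motifs were planned and not run, and the sequence of the brightest MCAM probe is not reported here.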

Additional observations from a re-analysis of the deposited data

How the results depend on the processing

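Only 8 arrays were read, and the median 95% interval of a TAT minus control difference was 0.71 wide to each side (0.52 with letters as a block). The replicate block, which pairs arrays of the same letter, changed no call: the medians over the 7 genes were 0.64, 0.41 and 0.20 for TAT minus control, gp120 minus control and TAT minus gp120, with 0 genes past the threshold in each. Without DES, a choice made after seeing the data, the medians were 0.63, 0.45 and 0.33. Of 795 recomputed values outside the leave-one-out fits 697 kept direction and side of the threshold. The median over the 7 genes turned to -0.15 (TAT) and -0.17 (gp120) against control with slide row as a block, and to -0.33 for gp120 with scan as a block. Against control the row fit rests on TAT A and gp120 A, and the scan fit for gp120 on gp120 A. Both set treated arrays of letter A against controls of letters A and B, so they cannot part row or scan from letter.

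The deposited table gave 4, 4 and 16 genes past the threshold in these comparisons, 780 between letters and a median of -0.25 for TAT minus control. Reversed there were, for TAT minus control, CNN1 (-0.25), MCAM (-0.51), MYH11 (-0.41) and JAG2 (-0.35), for gp120 minus control DES (-0.55), MCAM (-0.02) and JAG2 (-0.49), for TAT minus gp120 CNN1 (-0.30) and MCAM (-0.49), and for C minus B DES (1.07) and MCAM (0.31). Calls lost there were CNN1 in B minus A (1.87, adjusted p = 0.0877) and C minus A (0.52, 0.579) and MYH11 in C minus A (1.24, 0.198) and C minus B (-1.96, 0.263). With no filter ACTA2 in B minus A (0.0564) and CNN1 (0.0559) and MYH11 (0.0658) in C minus A lost theirs, and the C minus A calls of CNN1 and MYH11 were also lost with slide row (0.166 and 0.257) and scan (0.0853 and 0.0632) as blocks. With no filter 1026 genes passed between letters, with slide row as a block 137 (and 0 of the 7 genes in B minus A) and with scan as a block 904. Scan as a block moved the TAT minus gp120 median to 1.09.

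Slide row as a block reversed CNN1 (-0.78), MYH11 (-1.52), TAGLN (-0.15), RGS5 (-0.37), PDGFC (-0.14) and RBPJ (0.13) in TAT minus control, CNN1 (-1.23), MCAM (-0.17), TAGLN (-0.35), MYL6 (-0.12), RGS5 (-0.37) and RBPJ (0.18) in gp120 minus control, DES (-0.09), PDGFRB (0.16) and SRF (0.38) in B minus A, and DES in C minus A (-0.19). Scan as a block reversed CNN1 (-1.57), MCAM (-0.33), TAGLN (-0.53), MYL6 (-0.17), RGS5 (-0.16), PDGFC (-0.25) and RBPJ (0.40) in gp120 minus control, DES (-0.10) and SRF (0.16) in B minus A, and DES (-0.21) and PDGFRB (-0.03) in C minus A. The mean of all kept probes reversed DES in TAT minus control (0.26), TAT minus gp120 (0.09), B minus A (-0.03) and C minus A (-0.66). Scaling to the median reversed DES in C minus B (0.01), and normexp PDGFC in TAT minus control (-0.04) and B minus A (-0.05). Under normexp SYNPO2, HEY1 and GATA6 lost their B minus A calls (0.17, 0.43 and 0.08). In the reversals against control, slide row and scan as blocks set treated arrays of letter A against controls A and B, as given above. The causes of the other changes were not tested.

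Leaving out each array in turn gave 0 to 2 genes past the threshold for TAT and for gp120 against control, 0 to 3 for TAT minus gp120 and 568 to 1520 for letters. TAT minus control ran from -0.87 to 2.83 for CNN1, -1.75 to 1.91 for MYH11, -1.0 to 3.05 for RGS5 and -1.20 to 0.05 for RBPJ. gp120 minus control ran from -1.33 to 2.38 for CNN1, -0.62 to 0.72 for MCAM, -0.19 to 1.1 for TAGLN, -2.39 to 1.27 for MYH11, -1.0 to 3.04 for RGS5 and -1.15 to 0.10 for RBPJ. TAT minus gp120 ran from -0.27 to 0.45 for PDGFRB, -0.12 to 0.45 for ACTA2, -0.59 to 1.49 for CNN1, -0.41 to 1.79 for MYH11 and -0.30 to 0.71 for TAGLN. Between letters B minus A ran from -0.10 to 0.22 for DES and -0.60 to 0.17 for SRF, C minus A from -0.06 to 0.61 for PDGFRB and -0.21 to 0.19 for DES, and C minus B from -0.16 to 0.12 for DES. Leaving out either control gives the same letter fit, since the group term takes up the control that is left. Likewise scan as a block gives the letter fit without gp120 A, since that is the only gp120 array in its scan.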

Other observations

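The values of the 7 genes in the authors' deposited table could be traced to the spots. Of 56 values (7 genes on 8 arrays) 53 lay within 0.2 log2 units of the mean log2 signal of those spots of the gene that were well above background on that array, after 1 shift per array of 0.19 to 0.41. The set of spots averaged can therefore change from array to array. CNN1 in the table was 2.02 in control A and 2.30 in gp120 A, where 2 spots of the bright probe were averaged, and 0.87 in TAT A, where the dim coding probe was averaged in as well, although each CNN1 probe read TAT A above control A and gp120 A. DES in the table was 5.53 in gp120 C, where 1 of 4 spots was well above background, and 1.05 in gp120 B and 0.69 in gp120 A, where 2 were. The 3 values that did not follow the rule were DES in control B (5.11) and TAT B (1.20) and MCAM in TAT A (-0.41).

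Between ANPEP and the other called pericyte markers the direction parted. ANPEP read -0.95, -1.0 and -1.69 on the letter A arrays and -3.32, -2.69 and -2.77 on the letter B arrays, lower in B in each group, while HIGD1B, a mitochondrial protein of pericytes, read -0.66, -1.26 and -0.23 in A and 2.34, 2.89 and 1.83 in B. Among the endothelial markers ESAM, an adhesion molecule of endothelium and platelets, was 1.86 higher in B (adjusted p = 0.00431), at -0.84, -0.12 and -0.81 in A and 1.22, 1.41 and 1.17 in B. EGFL7 was lower in B at -1.34 (adjusted p = 0.027). Letter C did not lie between A and B for EGFL7, with C minus A at -3.24 (adjusted p = 0.00368 by limma). For ESAM C minus A was 1.73 (adjusted p = 0.00755 by limma), so letter C stood near letter B. These genes were chosen after their values were seen.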
